A study of Mus musculus with 10 samples.

Results

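Phase II enzymes attach a polar group to a drug, hormone, bile pigment or steroid so that it can leave the liver. The 48 genes described here encode 15 UDP-glucuronosyltransferases (UGT), 9 sulfotransferases (SULT), 21 glutathione S-transferases (GST, with the microsomal Mgst1 and Mgst3) and 3 further transferases, the arylamine N-acetyltransferases Nat1 and Nat2 and the thiopurine methyltransferase Tpmt. They were chosen by gene symbol, with earlier results of these data known, and all 48 were found among the 54532 genes of the count table. Of these, 47 passed the filter on low counts and were tested among 14244 genes. The one that did not was Gsta1.

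The livers came from mice given napabucasin (BBI608), a naphthoquinone studied as a drug against STAT3 signalling, at 20 mg per kg body weight by gavage every day for 7 days. Controls were gavaged with the vehicle, 1% sodium carboxymethyl cellulose (NaCMC), on the same schedule. Each group had 5 livers, 1 RNA-seq library per liver, labelled as biological replicates 1 to 5. The sources used here do not give strain, age or sex. Xist, expressed from an inactive X chromosome, measured 319.6 to 752 CPM (counts scaled to the library's total) in vehicle and 178 to 951 CPM after napabucasin, and 4 genes of the Y chromosome stayed at or below 0.342 CPM in every liver. Whole liver was sequenced, so fewer cells of a type and less RNA per cell cannot be told apart.

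Library totals ran from 14124484 to 17759967 counts. Hepatocyte markers were abundant in every library, albumin (Alb) at 28363 to 124696 CPM in vehicle livers and 54060.4 to 96276 CPM after napabucasin. Summed markers of kidney stayed at or below 1.07 CPM in every liver. Summed markers of intestine ran from 27.2 to 54.8 CPM, of which Fabp2 held 26.2 to 53.3 CPM, while Alpi was at 0. Vehicle replicate 2 and napabucasin replicate 1 stood apart from the other libraries in the phase II genes, and results are given with and without them. All 9 T and NK cell markers and all 6 B cell markers lay higher in napabucasin livers at an unadjusted p under 0.05. Their summed levels were 20.4 to 25.3 against 35.2 to 68.4 CPM and 19.0 to 29.7 against 49.5 to 106 CPM, and their part in the results below was not tested. All 7 markers each of Kupffer cells, sinusoidal endothelium and stellate cells lay higher, 1, 3 and 4 of them at an unadjusted p under 0.05. The 9 tested hepatocyte markers lay lower, their median log2 fold change being -0.26, and 1 of them, Cps1, was at an unadjusted p under 0.05. Over all genes tested, 9.34% were higher and 5.83% lower at that level.

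UGT enzymes sit in the endoplasmic reticulum and transfer glucuronic acid from UDP-glucuronic acid. The Ugt1a genes are alternative first exons spliced to common downstream exons, while each Ugt2b enzyme has its own gene in a cluster on chromosome 5. SULT enzymes are cytosolic and take sulfate from the donor PAPS. GST enzymes join glutathione to electrophiles, and several of their genes are textbook targets of NRF2, the factor that responds to quinones and oxidants. In mouse liver, Sult2a1, Sult2a2 and Sult3a1 are known for much higher expression in females.

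No phase II gene passed the threshold between the groups. At an adjusted p under 0.05 over all genes tested, edgeR's quasi-likelihood test called 0 of 47 members and 0% of 14244 genes. Limma-voom with quality weights also called 0 members, where it called 0.927% of the same 14244 genes. DESeq2 called 0 members and 0.787% of 26567 genes, since it was run without the filter on low counts. The smallest adjusted p of a member by edgeR was 0.321. At an unadjusted p under 0.05, edgeR and DESeq2 each gave 2 members lower, Sult3a1 and Ugt3a1, and 0 higher. Over all genes tested by edgeR, 5.83% were lower and 9.34% higher at that level, 15.2% together, so the members' 4.26% lay below the background. By DESeq2 4% of its 26567 unfiltered genes were lower and 5.94% higher. These shares include genes of low counts, so they are not alike to those over the 14244 filtered genes. By limma-voom 4 members (8.51%) were lower and 0 higher, where 11% and 11.3% of all genes were. These 4 were Ugt2b35, Ugt2b38, Ugt3a1 and Sult5a1, without Sult3a1. For no member did the 5 napabucasin livers all lie above or all below the 5 vehicle livers, a pattern that 2.15% of all genes showed.

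The members leaned lower without passing a test. The log2 fold change was below 0 for 34 and above 0 for 13 of 47, where all genes split 49.9% to 50.1%. The median over members was -0.23, against 0.00098 over all genes. That median was -0.096 without vehicle replicate 5 (28 lower, 19 higher), -0.15 without vehicle replicate 1 (27 and 20) and -0.15 with the replicate number as a block (30 and 17). With library size as the only scaling, 29 members lay below and 18 above 0, and the median was -0.13, against 0.069 over all genes. The unadjusted calls over all genes were then 1407 higher and 361 lower, where they had been 1331 and 830. By class the median was -0.18 for 15 UGT genes, -0.32 for 9 SULT genes and -0.23 for 20 tested GST genes. Without vehicle replicate 5 the UGT median was 0.029. With 1 surrogate variable as a covariate, 24 members lay above and 23 below 0 and the median was 0.014. Other lists of hepatocyte genes leaned lower too in the main fit. Of 9 tested hepatocyte markers, 9 lay lower and 0 higher, with a median of -0.26. Of 9 periportal genes, 7 lay lower and 2 higher (median -0.43), and of 9 pericentral genes, 6 lay lower and 3 higher (median -0.195).

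**Figure D1:**
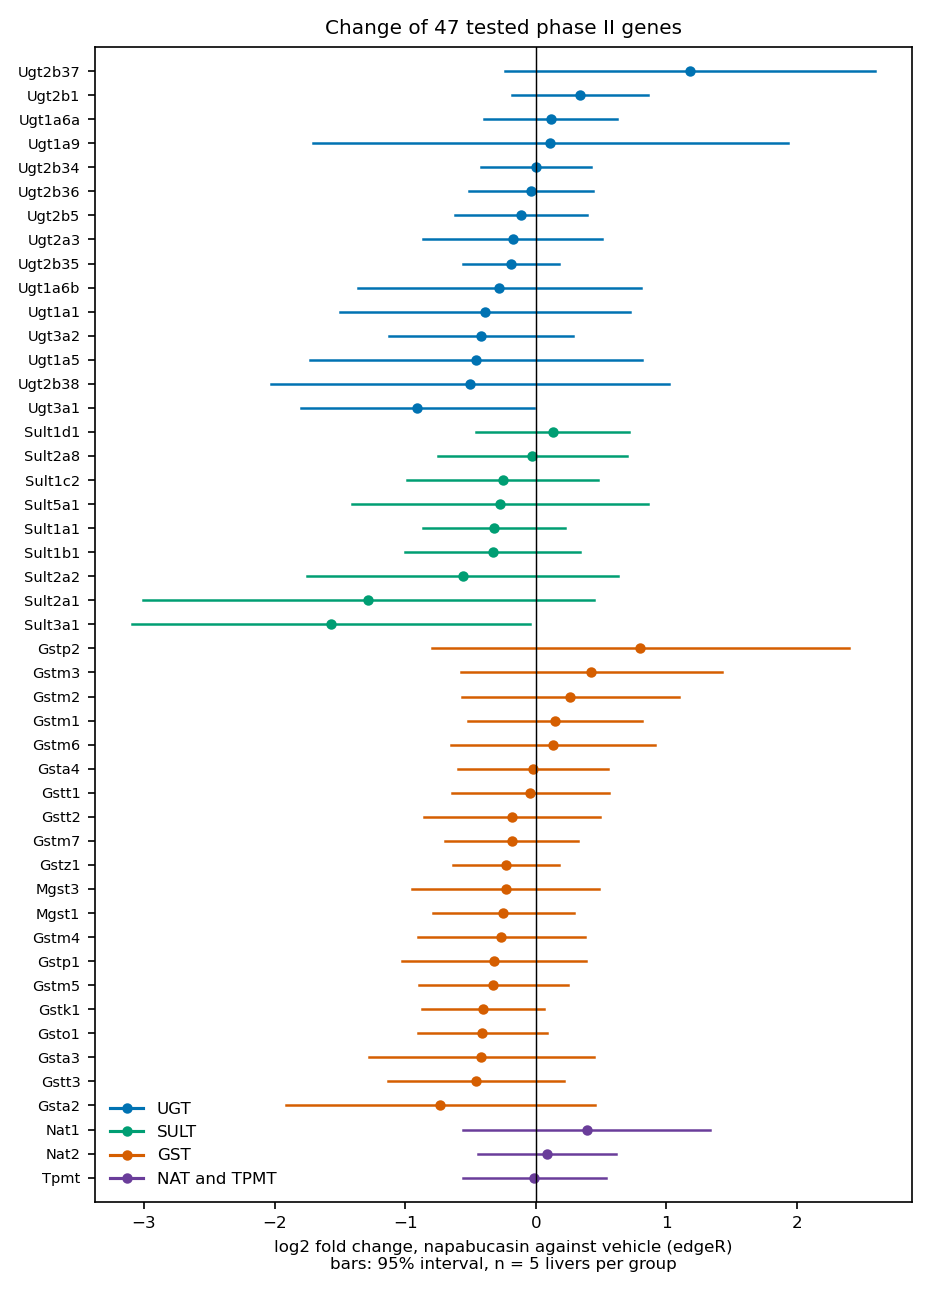
Log2 fold change of each tested phase II gene, napabucasin against vehicle, with its 95% interval from edgeR (5 livers per group), ordered within UGT, SULT, GST and NAT with TPMT. Of 47 points 34 lie below 0, and only the intervals of Sult3a1 and Ugt3a1 do not reach above 0.

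The precision differed widely between members. Half-widths of the 95% interval ran from 0.370 to 1.82 on the log2 scale, with a median of 0.685. For 26 members the whole interval lay within 2-fold in either direction. For 4 of them, Ugt2b34 (-0.42 to 0.42), Ugt2b35 (-0.56 to 0.18), Ugt2b36 (-0.51 to 0.44) and Tpmt (-0.56 to 0.54), it lay within 1.5-fold. Vehicle livers varied more than napabucasin livers in 33 of 48 members, with a median coefficient of variation of 42.0% against 31.0%. The same comparison over all genes was not made, so it cannot be read as a trait of the members. Vehicle replicate 2, described below, was the lowest vehicle liver in most members, and its part in this spread was not tested.

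Promoter sequences are shown for the member with the smallest p, Sult3a1, and for Gsta3 and Ugt2b1, abundant members whose promoters hold a motif of NRF2 or of the clock output factors, chosen after the motifs were seen. RefSeq (GRCm38.p6) gave a start site for 40 of the 48 members, and the 250 bases before it were searched on both strands. Capitals mark the match. In Sult3a1 (chr10:33857472-33857721, plus strand) it is TTCNNNGAA, the palindrome that STAT factors read, 109 bases before the start. In Gsta3 (chr1:21240335-21240584, plus strand) it is TGACNNNGC, the core of the antioxidant response element read by NRF2, 121 bases before the start. In Ugt2b1 (chr5:86926504-86926753, minus strand) it is TTATGTAA, the D-box read by the clock output factors Dbp, Hlf and Tef, 59 bases before the start and on the opposite strand.
Sult3a1: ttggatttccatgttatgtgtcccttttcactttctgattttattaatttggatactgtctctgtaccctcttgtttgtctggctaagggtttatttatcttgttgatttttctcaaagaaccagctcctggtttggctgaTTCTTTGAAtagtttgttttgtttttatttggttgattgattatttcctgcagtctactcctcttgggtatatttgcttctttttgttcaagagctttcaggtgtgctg
Gsta3: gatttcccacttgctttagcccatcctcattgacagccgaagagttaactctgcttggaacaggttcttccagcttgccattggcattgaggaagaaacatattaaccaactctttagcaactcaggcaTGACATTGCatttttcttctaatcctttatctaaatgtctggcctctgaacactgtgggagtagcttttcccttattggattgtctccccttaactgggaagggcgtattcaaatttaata
Ugt2b1: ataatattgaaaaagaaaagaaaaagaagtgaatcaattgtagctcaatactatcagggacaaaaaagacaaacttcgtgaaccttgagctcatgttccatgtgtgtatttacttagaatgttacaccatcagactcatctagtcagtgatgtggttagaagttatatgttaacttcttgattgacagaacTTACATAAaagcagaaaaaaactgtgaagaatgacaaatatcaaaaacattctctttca

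Shares are given over genes, a gene counting once if any of its promoter windows holds the motif. TGACNNNGC was in 4 of 40 members, namely Gsta3, Gstm5, Gstm7 and Mgst1, and in 11.5% of 27025 genes. TTCNNNGAA was in 4, Gsta1, Gstm6, Sult3a1 and Ugt1a6a, and in 8.13% of all genes. TTATGTAA was in Ugt2b1 alone among the 40 and in 0.977% of all genes, and GCGTG, the core read by AHR, was in 9 and in 30.9% of all genes. The palindrome TTGCGCAA of C/EBP factors, the HNF1 palindrome and the DR1 and DR4 repeats of nuclear receptors were in 0 of the 40. As exact strings they were in only 0.185%, 0.074%, 0.041% and 0.015% of all genes, so their absence says nothing about the members. TATAAA was in 5, against 14.3% of all genes. The 4 members with TGACNNNGC had log2 fold changes of -0.42, -0.32, -0.18 and -0.25, and Ugt2b1 had 0.34; none passed. Dbp itself measured 13.5 ± 9.42 and 1.74 ± 0.663 CPM (log2 fold change -2.95, edgeR adjusted p = 0.157).

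Levels between genes were compared per length, as FPKM (fragments scaled to gene length and to a size factor of each library). GST genes held 71.3% of the summed FPKM of the members, SULT genes 14.9% and UGT genes 13.3%. Gstm1, a cytosolic mu-class transferase, and Mgst1, a membrane-bound transferase of the endoplasmic reticulum and outer mitochondrial membrane, held 47.7% between them, with mean FPKM of 1363 and 1224 over the 10 livers. Sult1a1, which sulfates phenols, led its class at 304 FPKM, and Ugt2b5 led the UGT genes at 181 FPKM. In all, 11 members had a mean of at least 100 FPKM and 16 a mean under 10 FPKM. Ugt1a1, the bilirubin enzyme, was at 18.3 FPKM, below 7 other UGT genes. Of its exon bases 82.7% also lie in exons of another gene, and 50.3% to 60.6% do for the other Ugt1a genes. How reads there were counted is not given. The level and rank of Ugt1a1, and the UGT share, are therefore uncertain.

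**Figure D2:**
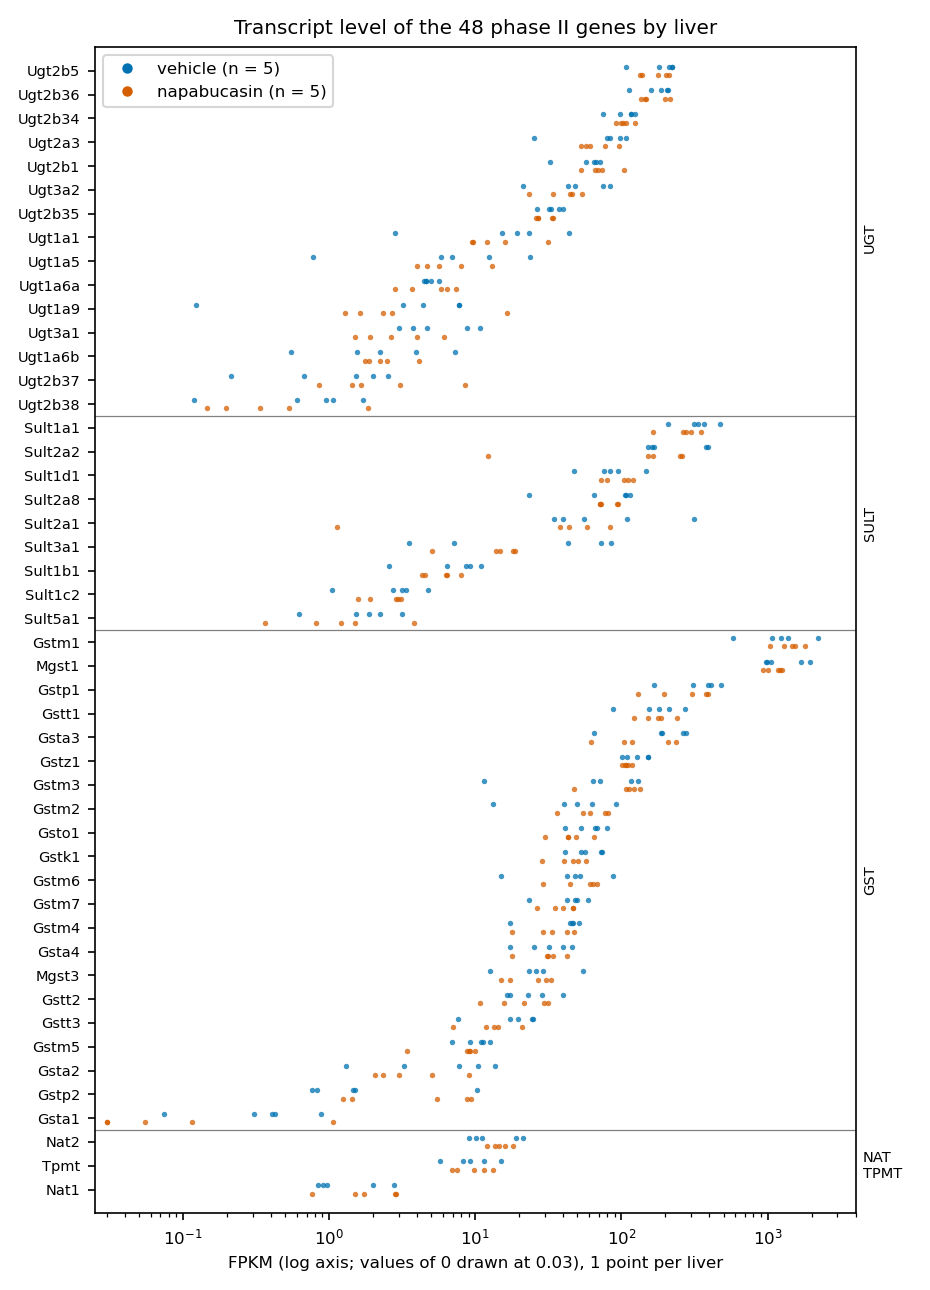
FPKM of each phase II gene in each liver on a log axis, grouped by class and ordered by mean level, with vehicle in blue and napabucasin in orange. Gstm1 and Mgst1 lead all classes, the 2 groups overlap in every gene, and single livers lie far to the left for Ugt1a9, Sult2a1 and Gstm3.

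Summed over each class, the groups overlapped. UGT transcripts summed to 815, 423, 773, 796 and 920.4 FPKM in vehicle replicates 1 to 5 and 879, 579, 574, 679 and 787 FPKM in napabucasin replicates 1 to 5. SULT transcripts summed to 1017, 507, 1150.0, 672 and 1289 FPKM in vehicle livers and 377, 691, 818, 647 and 895 FPKM after napabucasin. The lowest liver of the 10 was vehicle replicate 2 for the UGT sum and napabucasin replicate 1 for the SULT sum. GST transcripts summed to 5994, 2199, 4201, 3736 and 3864 FPKM in vehicle livers and 2684, 3608, 3762, 4066 and 4603 FPKM after napabucasin. Vehicle replicate 1 was the highest of all in the GST sum and vehicle replicate 2 the lowest.

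The members set apart 1 liver in each group. Vehicle replicate 2 was the lowest of the 5 vehicle livers in 41 of 48 members, among them 14 of 15 UGT, 7 of 9 SULT and 18 of 21 GST genes, and the lowest of all 10 livers in 28. It was the highest vehicle liver in 0 members. Vehicle replicate 1 was the highest of its group in 25. Napabucasin replicate 1 split the classes. It was the lowest of the 5 napabucasin livers in 17 of 21 GST genes, all 7 Gstm genes included, and the highest in 10 of 15 UGT genes, with 0 UGT genes in which it was the lowest. With library size as the only scaling, vehicle replicate 2 was the lowest of its group in 36 members and the highest in 2, and napabucasin replicate 1 was the lowest in 17 GST genes and the highest in 9 UGT genes.

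These livers also differed in some other measures. The median log2 CPM of the hepatocyte markers was 11.6 in vehicle replicate 2 and 12.1 to 12.9 in the other 9 libraries, and it was 12.2 in napabucasin replicate 1. Genes annotated as rRNA took 0.912% of counts in vehicle replicate 2 and 1.09% in napabucasin replicates 1 and 2 each, against 0.195% to 0.455% in the other 7. Mitochondrial genes took 19.9% of counts in napabucasin replicate 1, 19.0% in vehicle replicate 1 and 15.3% in napabucasin replicate 2. They took 7.03% to 11.4% in the other 7, and vehicle replicate 2, at 7.08%, did not stand apart in this measure. The part of these measures in the members' levels was not tested.

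**Figure D3:**
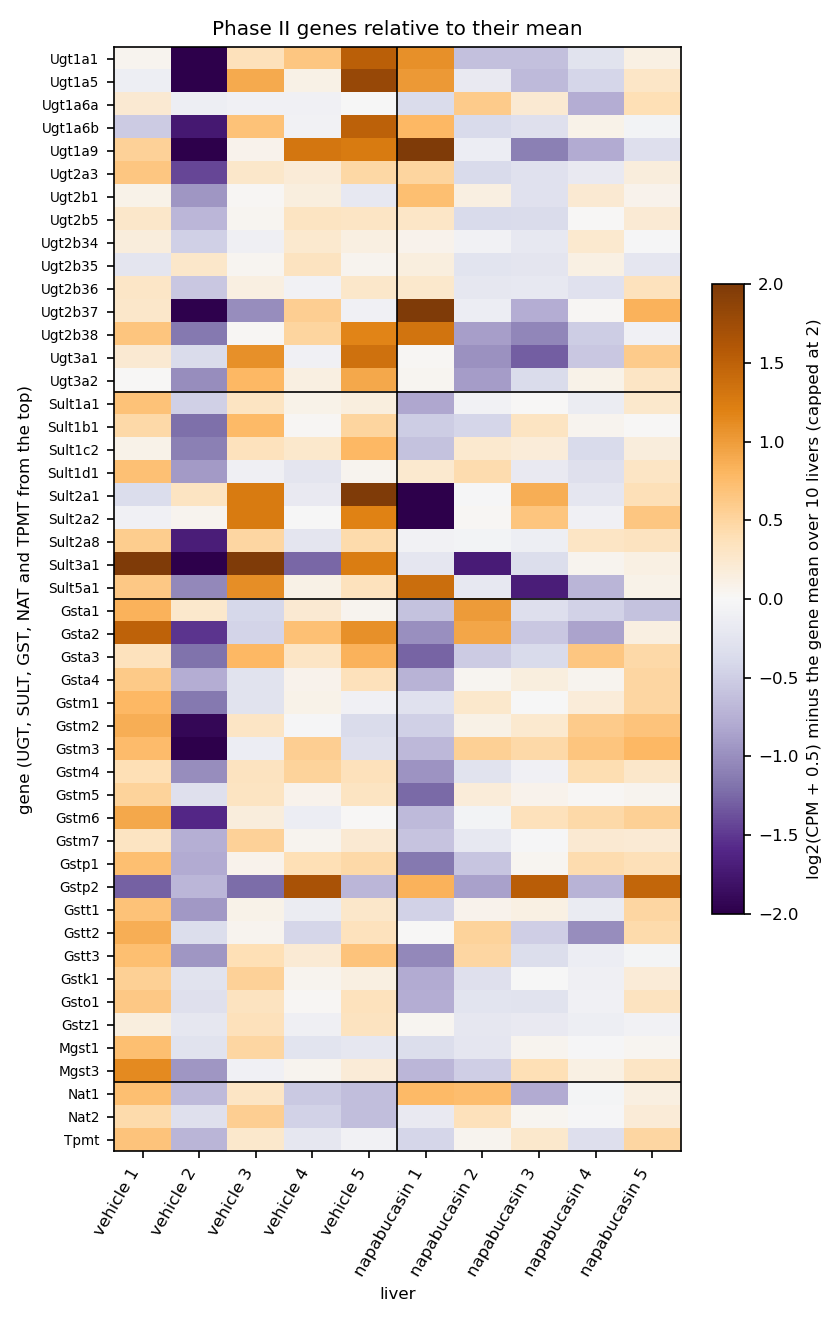
Each cell is log2(CPM + 0.5) of a phase II gene in 1 liver minus the gene's mean over the 10 livers, in orange above and purple below the mean, with values beyond 2 drawn at 2. Vehicle replicate 2 is purple in nearly all rows, and napabucasin replicate 1 is orange in most UGT rows and purple in most GST rows.

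Leaving these livers out changed the count of lower members, and since the members' own values singled the livers out, these counts are descriptions that support nothing about the members. Without vehicle replicate 2, 7 of 47 members were lower at an unadjusted p under 0.05 (Ugt3a1, Ugt3a2, Sult1b1, Sult3a1, Gstt3, Gstk1 and Gsto1), 14.9%, where 6.6% of all genes were. Without vehicle replicate 2 and napabucasin replicate 1 there were 10 (Ugt1a1, Ugt1a5, Ugt1a9, Ugt2a3, Ugt2b38, Ugt3a1, Ugt3a2, Sult3a1, Sult5a1 and Gstt3), 21.3% against 5.42% of all genes, and 0 higher. Ugt3a1, Sult3a1, Ugt3a2 and Gstt3 were in both sets. In neither fit did a member pass at an adjusted p under 0.05 by edgeR, with smallest adjusted p-values of 0.163 and 0.182. The count was 1 without napabucasin replicate 1 (Ugt2b38), 2.13% against 4% of all genes. It was 0 without vehicle replicate 3, vehicle replicate 5, napabucasin replicate 3 or napabucasin replicate 4, where 3.59%, 3.15%, 4.97% and 8% of all genes were lower. It was 3 without napabucasin replicate 5 (Ugt3a1, Gstk1 and Gsto1), 6.38% against 6.25%. It was 2 without vehicle replicate 4 (Ugt3a1 and Sult3a1), 4.26% against 3.99%. It was 1 without vehicle replicate 1 (Ugt3a1), 2.13% against 8.25%, and 1 without napabucasin replicate 2 (Gsta2), 2.13% against 3.17%. Leaving out both livers was tried after the data were seen, and dropping a low vehicle liver and a liver high in UGT genes by itself moves UGT genes toward lower.

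**Figure D4:**
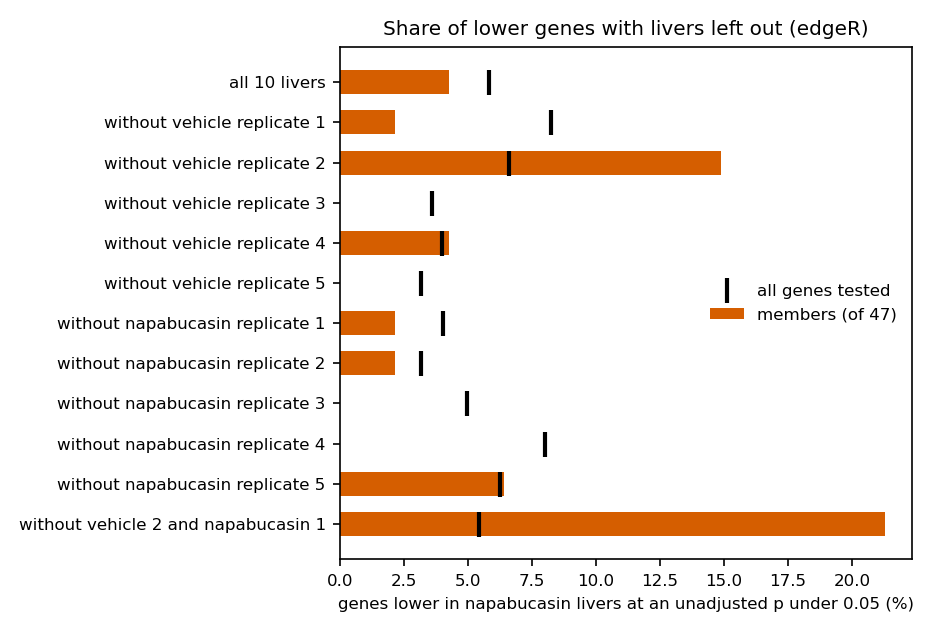
Bars show the percentage of the 47 members lower in napabucasin livers at an unadjusted p under 0.05 (edgeR) with all livers and with livers left out, and black ticks the percentage over all genes tested in the same fit. The bars stand farthest above their ticks without vehicle replicate 2, at 14.9%, and without it and napabucasin replicate 1, at 21.3%.

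Among the UGT genes, Ugt3a1 had the smallest p. It encodes an enzyme that transfers N-acetylglucosamine in place of glucuronic acid (chromosome 15, 9276888 to 9315032, GRCm38, as are all gene positions here). Ugt3a1 measured 12.7, 8.17, 23.4, 10.1 and 28.1 CPM in vehicle replicates 1 to 5 and 11.0, 5.19, 4.04, 7.16 and 16.6 CPM in napabucasin replicates 1 to 5. For Ugt3a1, 3 napabucasin livers lay below every vehicle liver, and the other 2 lay within the vehicle range. The log2 fold change of Ugt3a1 was -0.91 (SE 0.42, 95% interval -1.80 to -0.017, edgeR unadjusted p = 0.0463, adjusted p = 0.324). With the replicate number as a block its adjusted p was 0.144. Its neighbour Ugt3a2, which uses other sugar donors, measured 136, 67.6, 234, 149 and 257 CPM in vehicle livers and 141, 72.8, 105, 145 and 169 CPM after napabucasin (chromosome 15, 9335550 to 9370955). For Ugt3a2, every napabucasin liver lay within the vehicle range, and the log2 fold change was -0.42 (-1.12 to 0.29, edgeR adjusted p = 0.531).

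Ugt2b37 had the largest positive log2 fold change of the members, and it rested on 1 liver. Ugt2b37 (chromosome 5, 87240493 to 87254804) measured 3.85, 0.413, 1.28, 4.83 and 2.87 CPM in vehicle livers and 16.5, 2.76, 1.60, 3.15 and 5.88 CPM after napabucasin. Napabucasin replicates 1 and 5 lay above every vehicle liver, and the other 3 lay within the vehicle range. The log2 fold change was 1.18 (-0.24 to 2.595, edgeR unadjusted p = 0.0954, adjusted p = 0.397), and 0.34 without napabucasin replicate 1. With the replicate block its unadjusted p was 0.0345, which made it the 1 member higher at that level in that fit. Ugt2b1, another enzyme of the cluster, measured 176, 85.3, 167, 183 and 145 CPM in vehicle livers and 273, 181, 135, 193 and 173 CPM after napabucasin (chromosome 5, 86916638 to 86926530). Only napabucasin replicates 1 and 4 lay above the vehicle range for Ugt2b1, and its log2 fold change was 0.34 (-0.18 to 0.86, edgeR unadjusted p = 0.187).

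The 4 most abundant UGT genes overlapped between the groups. Ugt2b5, at 181 FPKM, measured 401, 204, 339, 416 and 409 CPM in vehicle livers and 406, 254, 257, 333 and 383 CPM after napabucasin. Ugt2b36 measured 428, 237, 384, 332 and 419.7 CPM in vehicle livers and 417, 300.4, 304, 284 and 447 CPM after napabucasin. All napabucasin values lay within the vehicle range for Ugt2b5, and all but replicate 5 for Ugt2b36. Ugt2b34 was at 510.0, 327, 422, 535 and 497 CPM in vehicle livers and 475, 434, 396, 538 and 449 CPM after napabucasin, and Ugt2a3 at 229.8, 54.4, 177, 168 and 205 and 209, 113, 120.5, 130.0 and 165 CPM. Both genes had their lowest value in vehicle replicate 2. The log2 fold changes were -0.11 (-0.62 to 0.39), -0.038 (-0.51 to 0.44), 0.000050 (-0.42 to 0.42) and -0.18 (-0.86 to 0.51). That of Ugt2a3 was -0.40 without vehicle replicate 2, -0.55 without it and napabucasin replicate 1 (edgeR unadjusted p = 0.0108, adjusted p = 0.268), and -0.051 without vehicle replicate 1. Mean levels of Ugt2b34 were 459 ± 84.5 and 459 ± 53.0 CPM (SD, n = 5 each).

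In the 5 Ugt1a genes on chromosome 1, single livers set the ends of the range. Vehicle replicate 2 was the lowest vehicle liver in all 5, and napabucasin replicate 1 the highest napabucasin liver in Ugt1a1, Ugt1a5, Ugt1a6b and Ugt1a9. Ugt1a9, a phenol-conjugating form (chromosome 1, 88070800 to 88218997), ran from 0.276 CPM in vehicle replicate 2 to 37.2 CPM in napabucasin replicate 1. Its log2 fold change was 0.11 with all livers, -1.20 without napabucasin replicate 1 and -1.51 without both of those livers (edgeR unadjusted p = 0.000632, adjusted p = 0.182). Ugt1a1 measured 46.4 ± 32.5 CPM in vehicle livers and 35.5 ± 20.9 CPM after napabucasin (SD, n = 5 each), with a log2 fold change of -0.39 (-1.50 to 0.72). The other 3 had log2 fold changes of -0.46 (Ugt1a5), 0.11 (Ugt1a6a) and -0.28 (Ugt1a6b). Ugt2b35 and Ugt2b38 had -0.19 and -0.50; none of these passed.

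Ugt2b35 went against the rest of its class in vehicle replicate 2. It measured 89.95, 128, 109, 134 and 109.9 CPM in vehicle livers and 117, 88.2, 89.96, 114 and 90.9 CPM after napabucasin, and vehicle replicate 2, the lowest vehicle liver for the other 14 UGT genes, lay above all other vehicle livers but replicate 4. Ugt2b38 measured 2.05, 0.230, 1.14, 1.80 and 3.16 CPM in vehicle livers and 3.55, 0.379, 0.276, 0.641 and 1.03 CPM after napabucasin. Without napabucasin replicate 1 the log2 fold change of Ugt2b38 was -1.52 (edgeR unadjusted p = 0.0324, adjusted p = 0.485).

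Sult3a1, an amine sulfotransferase (chromosome 10, 33857721 to 33879532), had the smallest p of all members and the largest negative log2 fold change. It measured 99.96, 4.13, 84.3, 8.26 and 48.8 CPM in vehicle replicates 1 to 5 and 17.4, 5.90, 16.0, 21.2 and 22.0 CPM in napabucasin replicates 1 to 5. Vehicle replicates 1, 3 and 5 lay above every napabucasin liver, while vehicle replicate 2 lay below all of them and replicate 4 below all but 1. The vehicle mean was 49.1 ± 43.3 CPM and the napabucasin mean 16.5 ± 6.44 CPM (SD, n = 5 each). The log2 fold change was -1.57 (SE 0.70, 95% interval -3.09 to -0.048, edgeR unadjusted p = 0.0441, adjusted p = 0.321). With 1 liver left out it ranged between -1.86 (vehicle replicate 2 out) and -1.16 (vehicle replicate 1 out), and it was -0.92 with the replicate block (edgeR unadjusted p = 0.119). By DESeq2 it was -1.58 (unadjusted p = 0.0463). By limma-voom it was -0.60 (unadjusted p = 0.437), and by limma on log2(FPKM + 1) -0.85 (unadjusted p = 0.294).

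Sult2a1 and Sult2a2, hydroxysteroid and bile acid sulfotransferases of chromosome 7, had a napabucasin liver far below the rest. Sult2a1 (chromosome 7, 13796246 to 13837409) measured 36.0, 57.6, 111, 40.6 and 318 CPM in vehicle livers and 1.18, 45.3, 85.1, 39.3 and 60.2 CPM after napabucasin. Sult2a2 (chromosome 7, 13733505 to 13779636) measured 115, 126, 291, 121 and 278 CPM in vehicle livers and 9.29, 123, 194, 115 and 191 CPM after napabucasin. In both genes napabucasin replicate 1 was far below every other liver, with 19 and 149 counts, and vehicle replicates 3 and 5 were the highest 2. In both genes, and in Ugt3a1 and Gstz1, the napabucasin liver was below the vehicle liver of the same number in 5 of 5 numbers. Some of these gaps were small, such as 40.6 against 39.3 CPM for Sult2a1 in number 4. The share of all genes with this pattern was not computed. The log2 fold change of Sult2a1 was -1.28 (-3.01 to 0.44, edgeR adjusted p = 0.441), -0.98 without napabucasin replicate 1 and -0.41 without vehicle replicate 5. With the replicate block its unadjusted p was 0.0391. That of Sult2a2 was -0.56 (-1.75 to 0.63, edgeR adjusted p = 0.618), -0.27 without napabucasin replicate 1, and -0.85 with the replicate block (unadjusted p = 0.0867).

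**Figure D5:**
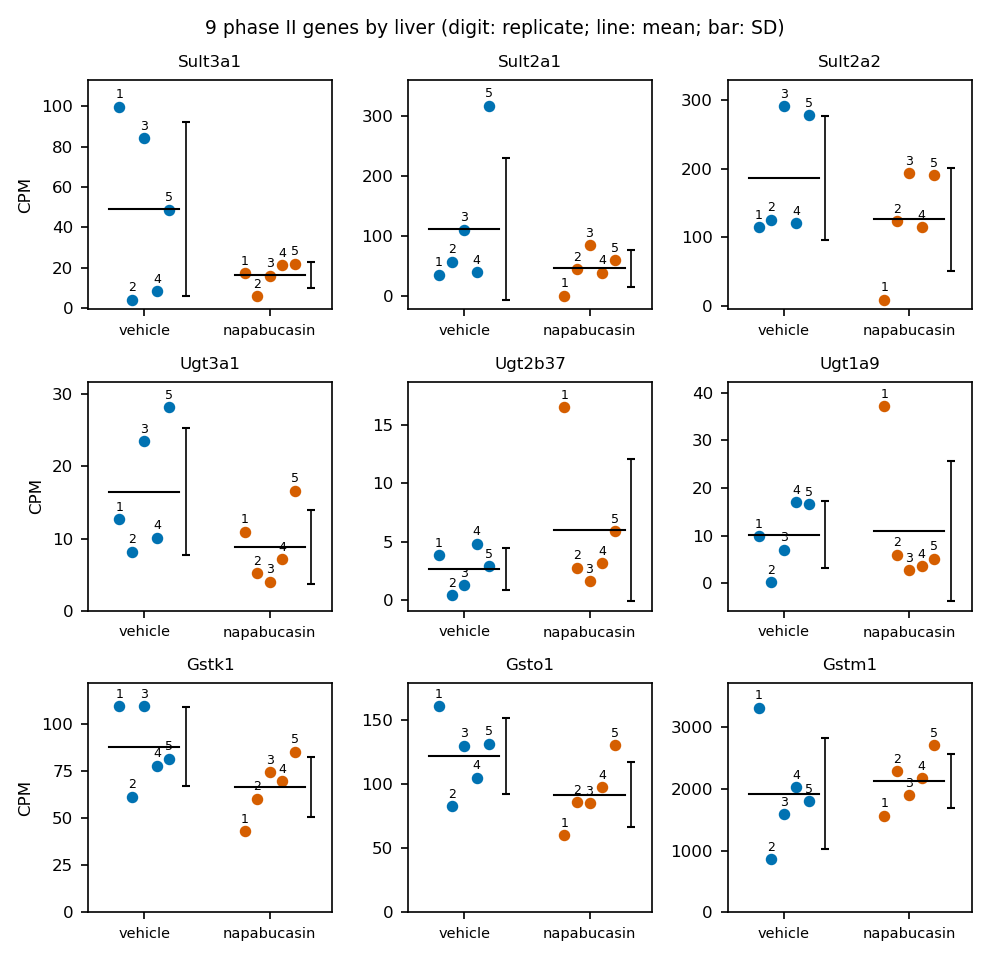
CPM of 9 phase II genes in each liver, with replicate numbers beside the points, the group mean as a line and the SD as a bar. Vehicle and napabucasin values overlap in every panel. Napabucasin replicate 1 lies near 0 for Sult2a1 and Sult2a2 and above all others for Ugt2b37 and Ugt1a9.

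Sult2a8, the third member of that family among the 48, did not share this pattern. It measured 380.1, 77.8, 356, 214 and 343 CPM in vehicle livers and 241, 241, 233, 312 and 318 CPM after napabucasin, and only vehicle replicate 2 lay apart from the rest. Sult1a1 (chromosome 7, 126672865 to 126676432) measured 724, 320.1, 560.0, 472 and 494 CPM in vehicle livers and 252, 424, 447, 403 and 534 CPM after napabucasin. Sult1d1, which sulfates catecholamines, measured 366, 118, 206, 189 and 231 CPM in vehicle livers and 263, 299, 196, 180.5 and 275 CPM after napabucasin. Napabucasin replicate 1 was the lowest of its group for Sult1a1 and not for Sult1d1. The log2 fold changes were -0.027 (-0.75 to 0.70), -0.32 (-0.86 to 0.22) and 0.13 (-0.46 to 0.72).

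The remaining SULT genes were low. Sult1b1, known for sulfating thyroid hormone, measured 24.3, 7.30, 30.3, 17.8 and 25.1 CPM in vehicle livers and 12.2, 12.8, 22.1, 18.2 and 17.7 CPM after napabucasin, with a log2 fold change of -0.33 (-1.001 to 0.34). All napabucasin values of Sult1b1 lay within the vehicle range; without vehicle replicate 2 the log2 fold change was -0.54 (edgeR unadjusted p = 0.0312, adjusted p = 0.248). Sult1c2 had -0.25 at a mean of 2.75 FPKM. Sult5a1 had -0.28 at 1.71 FPKM, with 17.1 CPM in napabucasin replicate 1 against 1.60 to 6.71 CPM in the other 4 napabucasin livers.

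Of 20 tested GST genes 15 lay lower and 5 higher, and 0 reached an unadjusted p under 0.05 by edgeR with all livers. The smallest p belonged to Gstk1, the kappa-class enzyme of mitochondria and peroxisomes (chromosome 6, 42245935 to 42250447). Gstk1 measured 109, 61.3, 109, 77.8 and 81.5 CPM in vehicle livers and 43.1, 60.3, 74.1, 69.4 and 85.1 CPM after napabucasin. Gsto1, an omega-class enzyme that reduces dehydroascorbate (chromosome 19, 47854970 to 47864790), measured 160.5, 83.0, 129.8, 105 and 131 CPM in vehicle livers and 60.3, 85.6, 85.2, 97.4 and 130.2 CPM after napabucasin. In both genes napabucasin replicate 1 was the lowest liver of all. The log2 fold changes were -0.40 (-0.87 to 0.065, edgeR adjusted p = 0.387) and -0.41 (-0.90 to 0.082, edgeR adjusted p = 0.397). Without vehicle replicate 2 they were -0.50 and -0.51 (edgeR unadjusted p = 0.0382 and 0.0399).

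Gstt3, of the theta class (chromosome 10, 75774115 to 75781414), measured 96.5, 29.8, 76.2, 66.7 and 93.1 CPM in vehicle livers and 27.9, 81.2, 45.7, 52.7 and 56.0 CPM after napabucasin. The alpha-class Gsta2 (chromosome 9, 78331018 to 78355788) measured 16.2, 1.56, 3.84, 9.22 and 12.1 CPM in vehicle livers and 2.49, 10.8, 3.54, 2.78 and 6.02 CPM after napabucasin. The groups overlapped in both, with log2 fold changes of -0.46 (-1.13 to 0.22) and -0.73 (-1.91 to 0.45). That of Gsta2 was -1.21 without napabucasin replicate 2 (edgeR unadjusted p = 0.0481) and -0.38 without vehicle replicate 1. Among alpha-class genes, Gsta3 was the abundant one at 171 FPKM, with 855 ± 358 CPM in vehicle livers and 640.3 ± 323 CPM after napabucasin (SD, n = 5 each). Gsta4, which conjugates the lipid peroxidation product hydroxynonenal, had a log2 fold change of -0.021 (-0.60 to 0.55). Gsta1, the untested member, had 0.0711 to 0.855 CPM in vehicle livers and 0 to 1.03 CPM after napabucasin.

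The most abundant GST genes overlapped widely. Gstm1 (chromosome 3, 108012255 to 108017973) measured 3322, 868, 1597, 2035 and 1806 CPM in vehicle livers and 1566, 2292, 1902, 2181 and 2715 CPM after napabucasin. Mgst1 (chromosome 6, 138140316 to 138156755) measured 4014, 2005, 3402, 2016 and 2087 CPM in vehicle livers and 1919, 2070.0, 2504, 2389 and 2492 CPM after napabucasin. Vehicle replicate 1 was the highest liver for both. Gstp1, the pi-class enzyme, measured 369.6, 129, 235, 296 and 308 CPM in vehicle livers and 100.4, 151, 229, 301 and 291 CPM after napabucasin. Gstt1, which acts on halogenated solvents, measured 425, 137, 279, 236 and 318 CPM in vehicle livers and 191, 276, 284, 235 and 369.8 CPM after napabucasin. The lowest liver of all was napabucasin replicate 1 for Gstp1 and vehicle replicate 2 for Gstt1. The log2 fold changes of these 4 genes were 0.15 (-0.52 to 0.81), -0.25 (-0.79 to 0.29), -0.32 (-1.03 to 0.38) and -0.043 (-0.64 to 0.56).

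The 7 mu-class genes, which lie side by side on chromosome 3, were lowest in the same liver of each group. Vehicle replicate 2 was the lowest vehicle liver and napabucasin replicate 1 the lowest napabucasin liver in all 7, under each of the 3 scalings. Gstm3 was at 15.3 CPM in vehicle replicate 2, where the other vehicle livers ran from 83.0 to 173 CPM, and Gstm2 was at 22.6 CPM against 66.6 to 157 CPM. Between groups the 7 did not share a sign: Gstm1, Gstm2, Gstm3 and Gstm6 had log2 fold changes of 0.15, 0.26, 0.42 and 0.13, and Gstm4, Gstm5 and Gstm7 of -0.26, -0.32 and -0.18. Without vehicle replicate 2 that of Gstm1 was -0.035 and that of Gstm6 -0.094.

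Gstp2, the neighbour of Gstp1, was low and uneven. It was at 7.98 CPM in vehicle replicate 4 and at 0.599 to 1.15 CPM in the other vehicle livers, and its log2 fold change was 0.80 (-0.80 to 2.40). Without vehicle replicate 4 it was 2.17 (edgeR unadjusted p = 0.00396, adjusted p = 0.360). Gstz1, the maleylacetoacetate isomerase of tyrosine breakdown, had -0.23 (-0.63 to 0.17) at 656 ± 114 and 560.1 ± 36.9 CPM (SD, n = 5 each). Gstt2 and Mgst3 had -0.18 (-0.86 to 0.49) and -0.23 (-0.95 to 0.48).

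The 3 remaining transferases overlapped between the groups. Nat2, which acetylates arylamines, measured 29.6, 17.3, 32.2, 15.5 and 13.6 CPM in vehicle livers and 18.8, 27.9, 22.1, 21.05 and 24.8 CPM after napabucasin. Nat1 was low, at 4.10, 1.24, 2.91, 1.41 and 1.29 CPM in vehicle livers and 4.24, 4.11, 1.11, 2.19 and 2.53 CPM after napabucasin. Tpmt, which methylates thiopurine drugs, measured 56.6, 21.4, 42.1, 30.5 and 33.6 CPM in vehicle livers and 26.0, 36.6, 42.3, 28.2 and 49.6 CPM after napabucasin. Vehicle replicate 1 was the highest liver for Tpmt, and napabucasin replicate 1 for Nat1. The log2 fold changes of Nat2, Nat1 and Tpmt were 0.087 (-0.44 to 0.61), 0.39 (-0.56 to 1.33) and -0.011 (-0.56 to 0.54).

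Genes listed for the supply or transport of the donors of these reactions, or of related nucleotides, were set beside the members. Of 20, 1 was higher and 5 were lower at an unadjusted p under 0.05, where 9.34% and 5.83% of all genes were. By edgeR 0 of the 20 passed at an adjusted p under 0.05, and their median log2 fold change was -0.15. The higher one was Gclc, the catalytic subunit of glutathione synthesis, at 260.5 ± 76.0 and 446 ± 92.5 CPM (SD, n = 5 each, log2 fold change 0.78, edgeR adjusted p = 0.233). The lower ones were Mat1a and Ahcy of the methylation cycle, Pank1 of coenzyme A synthesis and the carriers Slc35b1 and Slc35b2. Slc35b2 brings PAPS into the Golgi, while the SULT enzymes are cytosolic. The 2 carriers therefore do not describe the supply of a donor to the members. Mat1a had a log2 fold change of -1.01 and Pank1 of -0.86 (edgeR adjusted p = 0.208 and 0.246). Ugdh, which makes UDP-glucuronic acid, had 0.057, and the PAPS synthases Papss1 and Papss2 had 0.22 and -0.18.

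At an unadjusted p under 0.05 by edgeR, 9.34% of all genes were higher and 5.83% lower. Among 23 genes of factors known to regulate phase II enzymes or their donors, 2 lay higher and 3 lay lower at that level, and 0 passed by edgeR. The lower ones were Dbp, Hlf (log2 fold change -1.06, adjusted p = 0.185) and Cebpa (-0.68, adjusted p = 0.256), and the higher ones Nr0b2 (0.92, adjusted p = 0.235) and Mafg, a partner of NRF2 (0.66, adjusted p = 0.279). The receptors CAR (Nr1i3), PXR (Nr1i2) and AHR (Ahr) had 0.15, 0.29 and -0.31, and NRF2 (Nfe2l2) had 0.61. Of 12 tested genes of deconjugation and conjugate export, 0 lay higher and 1 lay lower at that level, the exporter Abcg2 (-0.40, edgeR adjusted p = 0.327). The conjugate exporters Abcc2 and Abcc3 had 0.20 and 0.22.

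Near-identical members can share reads, which bears on their separate values. In GENCODE M21 transcripts, cut into all stretches of 50 bases, 31 of 48 members shared under 10% of their stretches with another gene and 8 shared over 50%. The 5 Ugt1a genes shared 52.1% to 79.8%. Shares were 90.5% for Gsta1, 62.1% for Sult2a2, 54.3% for Gstp2, 49.8% for Gsta2, 41.7% for Ugt2b5 and 33.2% for Sult2a1. They were 6.15% for Sult3a1, 7.60% for Ugt3a1 and 0% for Gstk1, Gsto1 and Mgst1. The sources used here do not give how such reads were counted, and the values of the former genes are uncertain as separate genes.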

How the data were processed

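RNA of whole liver was sequenced in 10 libraries, 5 per group, after poly-A selection and random priming, per the labels' protocols. The deposited table holds whole-number counts of reads per gene beside FPKM values, both computed by the authors. The submitters' processing notes name CASAVA, HISAT2 2.0.5, featureCounts 1.5.0-p3 and GRCm38 (mm10); the sources used here do not give the strand setting, overlap rule or annotation release. FPKM recomputed from counts and lengths matched when each library was scaled by its median-of-ratios size factor. The authors' deposited gene lengths in bases, and GENCODE M21 (GRCm38), were used for levels and read sharing.

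The test was edgeR 4.0.16 (R 4.3.3): low counts removed by filterByExpr, TMM scaling, a robust quasi-likelihood fit on treatment alone, Benjamini-Hochberg adjusted over all 14244 genes at a threshold of 0.05. CPM values use TMM library sizes. Alternatives used limma 3.58.1, DESeq2 1.42.0 and sva 3.50.0. The edgeR procedure was tested on simulated data.

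Members and lists were chosen with earlier results of these data known. Values in every liver are given for up to 4 members per class with the smallest p and up to 4 with the highest FPKM, and for a few chosen after their values were seen. Of 247 list names 3 were not matched. What an equal replicate number stands for is not in the labels. For numbers 1 to 5, the 2 libraries' deviations from their group means had correlations of 0.154, 0.227, 0.208, 0.270 and 0.278. Each exceeded 0.1, and on that ground only the replicate numbers were taken to pair livers in the alternative fit with a block. The same pairs were used where livers of equal number were compared. The main test left the pairing out, since the labels do not give its meaning.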

Additional observations from a re-analysis of the deposited data

Results flagged for a closer look

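Of 96 groups of 5 CPM values, 9 held a liver whose gap to the nearest other liver, divided by the group's whole range, was above 0.71. For independent, normally distributed values about 4.8 groups would be. The same livers recur across these genes, so that number does not apply here, and the 9 are a description only. High values in napabucasin replicate 1 came from 3 UGT genes: Ugt1a9 was at 37.2 CPM against 2.82 to 6.01 CPM in the other 4 (ratio 0.907); Ugt2b37 was at 16.5 CPM against 1.60 to 5.88 CPM in the other 4 (ratio 0.713). Ugt2b38 was at 3.55 CPM there against 0.276 to 1.03 CPM (ratio 0.771). Napabucasin replicate 1 was at 4.49 CPM for Gstm5, where the other 4 ran from 11.4 to 12.9 CPM (ratio 0.828). Vehicle replicate 2 was at 30.03 CPM for Gstm4, where the other 4 ran from 76.7 to 87.8 CPM (ratio 0.808). Vehicle replicate 5 was at 318 CPM for Sult2a1, where the other 4 ran from 36.0 to 111 CPM (ratio 0.733). Vehicle replicate 1 was at 24.9 CPM for Ugt1a6a, where the other 4 ran from 19.6 to 21.1 CPM (ratio 0.715). Vehicle replicate 4 was at 7.98 CPM for Gstp2, where the other 4 ran from 0.599 to 1.15 CPM (ratio 0.925). Napabucasin replicate 2 was at 1.03 CPM for Gsta1, where the other 4 ran from 0 to 0.111 CPM (ratio 0.892).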

How the results depend on the processing

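In all 23 alternatives 0 members passed at an adjusted p under 0.05 by edgeR, DESeq2 or limma; the smallest adjusted p was 0.123, for Ugt3a1 with limma-voom. The member medians moved widely: with 1 liver left out from -0.34 to -0.096 over all members, -0.34 to 0.029 for UGT, -0.51 to -0.21 for SULT and -0.33 to -0.12 for GST genes, and the UGT median was -0.55 without both livers. The count lower at an unadjusted p under 0.05 was 2 with all livers, 4.26% against 5.83% of all genes. It was 1 with library size only (2.13% against 2.53%) and 4 by limma-voom (8.51% against 11%). It was 0 without a count filter (5.31% of all genes), 0 on each of the 3 FPKM scales (6.45%, 6.04% and 4.55%) and 0 with 1 surrogate variable (2.95%). Without vehicle replicate 2 and napabucasin replicate 1 it was 10 (21.3% against 5.42%), and with 1 liver left out it ran from 0 to 7. The count higher, 0 with all livers (9.34% of all genes), was 1 with the replicate block (11.8% of all genes) and ran from 0 to 1 with 1 liver left out. With the block the lower pair was Ugt3a1 and Sult2a1, where 8.81% of all genes were lower, and 6 of 10 libraries correlated best with their own number. Of 1081 alternative values of single members, 988 kept their sign, and 20 of 47 members had 1 sign throughout. With 1 surrogate variable the SULT and GST medians were 0.089 and 0.15. Log2 fold changes of the opposite sign, none past the threshold, follow; the cause was not tested. With size factors: Ugt2b34 -0.0097. With library size only: Ugt2b36 0.055, Sult2a8 0.13, Gsta4 0.098, Gstt1 0.089, Tpmt 0.11. Without a filter: Ugt2b34 -0.026. By DESeq2: Ugt2b34 -0.011. By limma-voom: Ugt1a9 -1.10, Ugt2b34 -0.13, Sult2a8 0.013, Gsta4 0.10, Gstt1 0.093, Mgst3 0.060, Tpmt 0.17. On log2(FPKM + 1), with and without the filter: Ugt1a9 -0.11, Sult2a8 0.14, Gstt1 0.0071, Tpmt 0.0075. On log2(FPKM + 0.1): Ugt1a5 0.027, Ugt1a6b 0.071, Sult2a8 0.15, Gstt1 0.0075, Tpmt 0.011. With the replicate block: Ugt1a6b 0.062, Ugt1a9 -0.13, Sult2a8 0.14, Gsta4 0.021, Gstt1 0.022, Tpmt 0.028. With 1 surrogate variable: Ugt1a9 -1.63, Sult1b1 0.089, Sult1c2 0.20, Sult1d1 -0.039, Sult2a1 0.47, Sult2a2 0.55, Sult2a8 0.23, Gsta3 0.31, Gsta4 0.27, Gstm4 0.24, Gstm5 0.028, Gstm7 0.17, Gstp1 0.15, Gstt1 0.16, Mgst3 0.014, Nat1 -0.17, Tpmt 0.13. Without both livers: Ugt1a9 -1.51, Ugt2b34 -0.10, Sult1d1 -0.051. With 1 liver left out, the sign changed at least once for Ugt2b36 (-0.15 to 0.027), Sult2a8 (-0.26 to 0.10), Gsta4 (-0.17 to 0.14), Gstt1 (-0.21 to 0.15), Gstt2 (-0.35 to 0.043), Mgst3 (-0.42 to 0.11), Tpmt (-0.15 to 0.18), Ugt1a9 (-1.20 to 0.38), Ugt2b34 (-0.095 to 0.065), Sult1d1 (-0.028 to 0.37), Gstm1 (-0.035 to 0.42), Gstm6 (-0.094 to 0.44), Nat2 (-0.041 to 0.27), Ugt1a1 (-0.82 to 0.058), Ugt1a5 (-0.82 to 0.14), Ugt1a6b (-0.55 to 0.29), Ugt1a6a (-0.049 to 0.27). Leaving out both livers was chosen after seeing the data. Gsta1, at 0 to 19 counts per library, was too low for the filter.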

Other observations

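Other conjugating enzymes of liver leaned lower. Of 15 genes listed for methylation and for glycine or taurine conjugation, Thtpa, a thiamine triphosphatase (-0.93), among them, 13 lay lower and 2 higher. The median log2 fold change was -0.18. At an unadjusted p under 0.05, 4 lay lower and 0 lay higher, where 5.83% and 9.34% of all genes were. By edgeR 0 passed at an adjusted p under 0.05. Nnmt, which methylates nicotinamide, measured 147 ± 81.6 and 63.8 ± 37.6 CPM (SD, n = 5 each, log2 fold change -1.21, edgeR adjusted p = 0.264). As3mt, the arsenic methyltransferase, had -0.76, and Gnmt, the glycine N-methyltransferase, -0.89 (edgeR adjusted p = 0.278 and 0.287). Gm4952 had -0.56. Baat, which joins bile acids to taurine or glycine, had -0.11.

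Further genes of the UGT, SULT and GST families were mostly below the filter. Of 27 in the table, 9 passed the filter on low counts, 4 of them higher and 5 lower, and 0 reached an unadjusted p under 0.05. Summed, the 27 measured 46.3 to 91.9 CPM in vehicle livers and 51.5 to 99.6 CPM after napabucasin. Gstp3 at 28.1 ± 10.1 and 33.3 ± 10.01 CPM and Gstp-ps at 23.4 ± 8.82 and 22.8 ± 9.90 CPM (SD, n = 5 each) made up most of it. Sult2a7 had the largest negative log2 fold change of the 9, -0.90, and Hpgds, the prostaglandin D synthase, the largest positive one, 0.64.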
